A study of Pleurotus tuoliensis with 2 samples.

Results

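The versatile and manganese peroxidase unigenes of *Pleurotus tuoliensis*, an edible white-rot mushroom, were the 10 assembled unigenes, of 17030 in the deposited table, whose Swiss-Prot match was a versatile peroxidase and whose length was at least 900 bases. No expression value entered this choice. The study compared immature with mature mycelia of strain ACCC 50869. Immature mycelia were grown in the dark at 25 °C for 37 days in bottles of 820 g of substrate and were taken at day 0 of the next phase. Mature mycelia came from the same cultivation after 35 further days in the dark at 17 °C, and each group held 3 bottles with 1 RNA-seq library each. Maturity, temperature and age of the culture changed together and cannot be told apart.

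Versatile and manganese peroxidases are secreted heme enzymes with which white-rot fungi attack lignin. Manganese peroxidase oxidizes divalent manganese, and the chelated trivalent ion then diffuses to phenolic parts of the polymer. Versatile peroxidase has the same manganese site and also a surface tryptophan through which it oxidizes larger aromatic substrates directly. Both consume hydrogen peroxide, which fungal oxidases supply. *Pleurotus* species carry a family of such paralogs, and the so-called short manganese peroxidases lack the long C-terminal tail known from *Phanerochaete*.

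All 10 unigenes matched a versatile peroxidase of *P. eryngii* in Swiss-Prot, 7 of them VPL1, 2 VPL2 and 1 VPS1. Their best matches in the Nr protein database were more varied. Of the 10, 6 matched a manganese peroxidase, and 4 of these 6 a short one. For 1 unigene the match was a versatile peroxidase, and 9 matches were proteins of *P. ostreatus*. In all, 7 different Nr proteins were matched, so that some unigenes shared one. The heme binding term was given to 10 members, and the lignin catabolic term to 2, DN9023_c0_g1 and DN9023_c0_g6, of the 6 unigenes in the table that carried it. In the assembly 5 members belonged to component DN8870_c0 and 3 to DN9023_c0. Unigenes of 1 component share sequence, and the RSEM estimate divides reads among such copies, so the split within a component is uncertain. Component sums are given as well, both of FPKM and of FPKM times length in kilobases, since moving reads between unigenes of unequal length changes the first. Lengths ran from 918 to 6798 bases. The 3 members of at least 3166 bases are much longer than a peroxidase transcript needs, 2 of them were assigned 2 eggNOG groups each, and their FPKM covers all of their sequence.

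Expression was given as FPKM, fragments scaled both to unigene length and to the size of each library. Being per length, it sets paralogs side by side only as averages over their whole assembled sequence. The levels of the 3 members of at least 3166 bases may therefore not compare directly with those of the shorter members. This limit applies to the order of levels and to the shares given below. FPKM summed to between 1206300 and 1238510 per bottle. The number of fragments behind a value is not carried by this unit; among the 698 unigenes of 872 to 964 bases, close to the shortest member, the smallest values above 0 were between 0.10 and 0.48 FPKM in the 6 libraries. No member was at 0 in any library. Of 13611 unigenes with an Nr match, 90.3% matched a *Pleurotus* protein, and these carried 76.9% to 80.7% of the summed FPKM. Hydrophobins and other words for fruiting tissue found 13 unigenes, of which 1 was past the thresholds of the study in each direction. The *SC3* match DN5369_c0_g1 was higher at a log2 ratio of 1.06 (adjusted p = 0.286 in the limma fit described below). It was low, between 2.62 and 11.77 FPKM, and the groups overlapped, with immature bottle 2 at 8.56 and mature bottle 2 at 8.45 FPKM. The *SC3* match DN6631_c0_g1, matched in Nr to a vegetative mycelium hydrophobin, was lower at -1.43 (limma adjusted p = 0.120). The summed FPKM of the 13 unigenes lay between 1300 and 1674 in immature and between 1115 and 1352 in mature bottles. In these bulk samples fewer cells of a type and less RNA per cell cannot be told apart. No unigene of glyceraldehyde-3-phosphate dehydrogenase (2 tested), actin (3), tubulin (8) or elongation factor 1-alpha (1) was past those thresholds. Smaller differences are not covered by them. The log2 ratios ran from -0.08 to 0.41 for glyceraldehyde-3-phosphate dehydrogenase, from -0.18 to 0.29 for actin and from -0.33 to 0.61 for tubulin. For elongation factor 1-alpha it was 0.23.

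The log2 ratios below are mature minus immature on the scale of log2(FPKM + 1), fitted by limma to the 16496 unigenes with a mean FPKM above 1, which included all 10 members. Adding 1 shrinks the ratios of low unigenes. The study's thresholds were an unadjusted p of at most 0.05 and an absolute log2 ratio of at least 1. In this fit they were met by 2 members, DN8870_c0_g2 and DN9023_c0_g1, both higher in mature mycelia. No member (0) met them in the other direction. Over all unigenes tested the thresholds called 3.01%, with 1.18% higher and 1.82% lower. The paper's own DESeq2 analysis reported DN9023_c0_g3 as upregulated besides DN8870_c0_g2 and DN9023_c0_g1. For DN8870_c0_g2 the paper also reported a similar pattern by RT-qPCR, with the glyceraldehyde-phosphate dehydrogenase gene as its internal reference. At a Benjamini-Hochberg adjusted p under 0.05 limma called 0.0667% of unigenes and 0 members. The adjusted p of the members lay between 0.161 and 0.487. At an unadjusted p under 0.05 there were 7 of the 10 members, 4 higher and 3 lower, beside 2544 of the 16496 unigenes tested. The members went both ways: 5 log2 ratios were above 0 and 5 below, with a median of 0.04 against -0.07 for all unigenes tested.

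TRINITY_DN8870_c0_g2, 4786 bases long and matched to VPL1 and to manganese peroxidase 3 of *P. ostreatus*, had the highest mean FPKM of the family. It was at 313.88, 95.42 and 216.86 FPKM in immature bottles 1, 2 and 3, against 325.19, 1371.74 and 1429.87 FPKM in mature bottles 1, 2 and 3, the order in which all values per bottle are given. All mature bottles were above all immature ones, but mature bottle 1 exceeded immature bottle 1 only slightly and the other mature bottles were far higher. The mean was 209 ± 109 FPKM (SD, n = 3) in immature and 1042 ± 622 FPKM (SD, n = 3) in mature mycelia, and the log2 ratio was 2.20 with an SE of 0.71 and a 95% interval of 0.47 to 3.93 (limma, adjusted p = 0.249). In the limma fit the call by the study's thresholds depended on which bottles were kept. That call was lost without immature bottle 2 (log2 ratio 1.72), without mature bottle 2 (1.86) and without mature bottle 3 (1.83). The ratios stayed above 1, and the unadjusted limma p rose to 0.064, 0.065 and 0.066, in fits with 1 bottle fewer. Among all 17030 unigenes ranked by FPKM, DN8870_c0_g2 stood at 531, 2398 and 845 in the immature and at 494, 90 and 90 in the mature bottles.

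TRINITY_DN9023_c0_g1, the VPS1 match of 3166 bases, was a manganese peroxidase by Nr and carried the lignin catabolic term. Its values were 20.81, 30.39 and 22.38 FPKM in immature bottles, against 73.28, 434.92 and 223.55 FPKM in mature bottles. The immature bottles were close together and low, all mature bottles were above them, and mature bottle 1 was the lowest of its group. Means were 24.5 ± 5.14 and 244 ± 182 FPKM (SD, n = 3 each). The log2 ratio of 2.94 (SE 0.62, 95% interval 1.42 to 4.46, limma adjusted p = 0.161) was the highest of the family. It stayed past the study's thresholds without any 1 of the 6 bottles, with log2 ratios from 2.36 to 3.63. Its rank moved from between 7676 and 9929 in the immature to 3319, 366 and 830 in the mature bottles 1, 2 and 3.

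**Figure D1:**
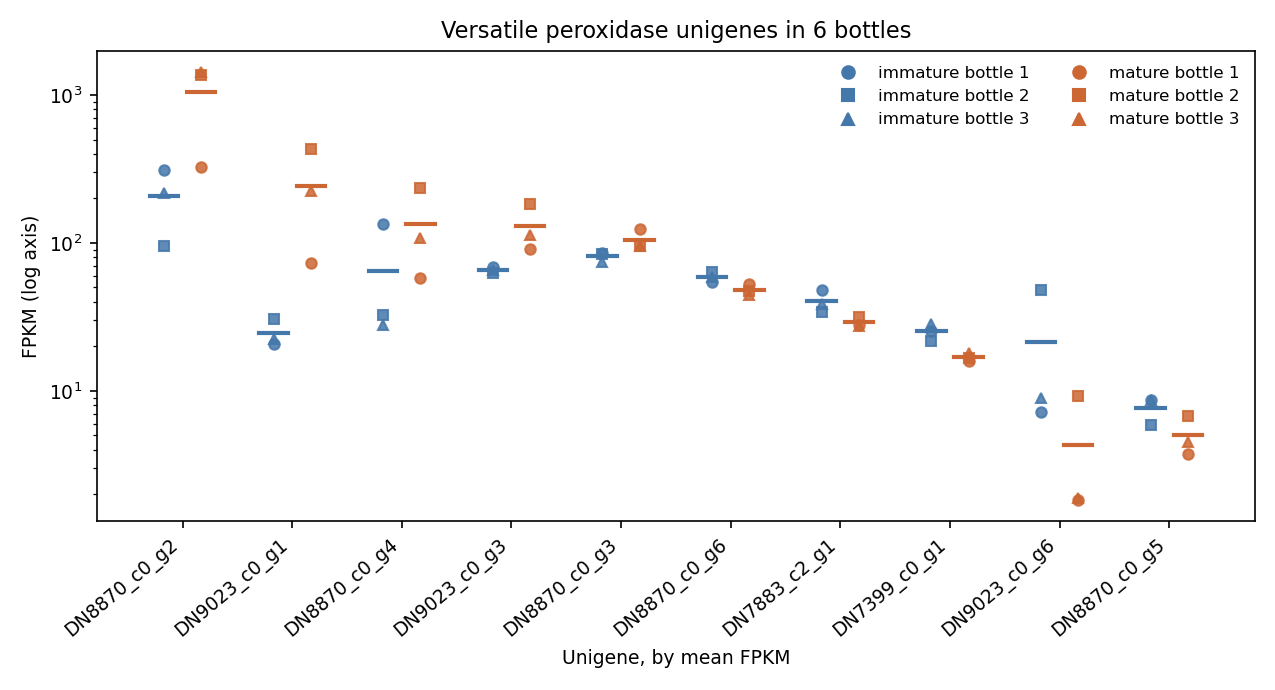
FPKM on a log axis for the 10 unigenes, ordered by mean FPKM, with blue points for the 3 immature and orange points for the 3 mature bottles (shape gives the bottle) and a bar at each group mean. All mature points lie above all immature points for DN8870_c0_g2, DN9023_c0_g1, DN9023_c0_g3 and DN8870_c0_g3, though the bottles numbered 1 of DN8870_c0_g2 nearly coincide. The 3 immature bottles of DN9023_c0_g6 run from 7.22 to 47.97 FPKM.

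The other members of DN8870_c0 had smaller log2 ratios. TRINITY_DN8870_c0_g4, a VPL2 match of 1144 bases and a short manganese peroxidase by Nr, was at 134.17, 32.53 and 27.99 FPKM in immature bottles, against 57.59, 234.2 and 108.85 FPKM in mature bottles. Immature bottle 1 lay above mature bottles 1 and 3, so that the groups overlapped. Its log2 ratio was 1.18 (SE 0.75, 95% interval -0.65 to 3.0, limma adjusted p = 0.487). Without immature bottle 1 it was 1.88 and past the study's thresholds, and it was 0.66 without mature bottle 2 and 0.77 without immature bottle 3.

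TRINITY_DN8870_c0_g3 (1512 bases) and TRINITY_DN8870_c0_g6 (1192 bases) matched VPL1 and the same *P. ostreatus* protein in Nr, which carries no enzyme name there. DN8870_c0_g3 was at 85.36, 83.85 and 74.37 FPKM in immature bottles, against 123.52, 95.91 and 95.59 FPKM in mature bottles. DN8870_c0_g6 was at 54.41, 64.12 and 59.13 FPKM in immature bottles, against 53.19, 47.58 and 44.2 FPKM in mature bottles. The groups did not overlap in either, with the mature bottles above for DN8870_c0_g3 and below for DN8870_c0_g6, and both differences were small. The log2 ratios were 0.36 (SE 0.13, limma adjusted p = 0.290) for DN8870_c0_g3 and -0.29 (SE 0.11, limma adjusted p = 0.313) for DN8870_c0_g6.

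TRINITY_DN8870_c0_g5 (1563 bases, VPL1) had the same short manganese peroxidase as its Nr match as DN8870_c0_g4, at a much lower level. It was at 8.63, 5.87 and 8.62 FPKM in immature bottles, against 3.75, 6.73 and 4.52 FPKM in mature bottles. Mature bottle 2 exceeded immature bottle 2, so the groups overlapped. The log2 ratio was -0.55 (SE 0.27, limma adjusted p = 0.387).

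In component DN9023_c0, the longest member, TRINITY_DN9023_c0_g3, matched VPL1 but a hypothetical protein in Nr, over a unigene of 6798 bases. It was at 68.37, 63.05 and 65.95 FPKM in immature bottles, against 90.78, 183.74 and 113.66 FPKM in mature bottles. The immature bottles were nearly equal, and every mature bottle was above them. The log2 ratio was 0.90 (SE 0.25, 95% interval 0.28 to 1.53, limma adjusted p = 0.213), and without mature bottle 1 it was 1.12 and past the study's thresholds, but 0.62 without mature bottle 2.

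TRINITY_DN9023_c0_g6, the shortest member at 918 bases, was the only one matched to a versatile peroxidase in Nr, that of *P. sapidus*. It was at 7.22, 47.97 and 8.92 FPKM in immature bottles, against 1.83, 9.19 and 1.88 FPKM in mature bottles. Bottle 2 was the high one in both groups, and mature bottle 2 was above immature bottles 1 and 3. The log2 ratio was -1.86 (SE 0.84, 95% interval -3.92 to 0.19, limma adjusted p = 0.355). Without mature bottle 2 it was -2.47 and past the study's thresholds, and without immature bottle 2 it was -1.05.

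A further versatile peroxidase unigene of the same component, TRINITY_DN9023_c0_g7, was under the length limit at 631 bases. It matched a versatile peroxidase precursor of *P. eryngii* and was at 13.02, 116.57 and 25.35 FPKM in immature bottles, against 5.55, 30.59 and 3.26 FPKM in mature bottles. Bottle 2 was again the highest of each group, and over the 6 bottles its log2 values followed those of DN9023_c0_g6 with a Pearson r of 0.978. Both unigenes come from the same libraries and 1 component, so this r describes them without a test. Its log2 ratio was -1.87 (SE 1.03, limma adjusted p = 0.428). The sum of DN9023_c0_g6 and DN9023_c0_g7 was 20.2, 165 and 34.3 FPKM in immature bottles, against 7.38, 39.8 and 5.14 FPKM in mature bottles.

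The last pair of members stood alone in their components and shared a short manganese peroxidase as their Nr match. TRINITY_DN7883_c2_g1 (975 bases, VPL2) was at 48.01, 34.22 and 38.43 FPKM in immature bottles, against 27.73, 31.71 and 27.61 FPKM in mature bottles. TRINITY_DN7399_c0_g1 (1355 bases, VPL1) was at 25.55, 21.89 and 28.41 FPKM in immature bottles, against 15.99, 16.68 and 18.13 FPKM in mature bottles. Every mature bottle was below every immature bottle for both. The log2 ratios were -0.45 (SE 0.15, limma adjusted p = 0.262) for DN7883_c2_g1 and -0.55 (SE 0.14, limma adjusted p = 0.190) for DN7399_c0_g1.

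**Figure D2:**
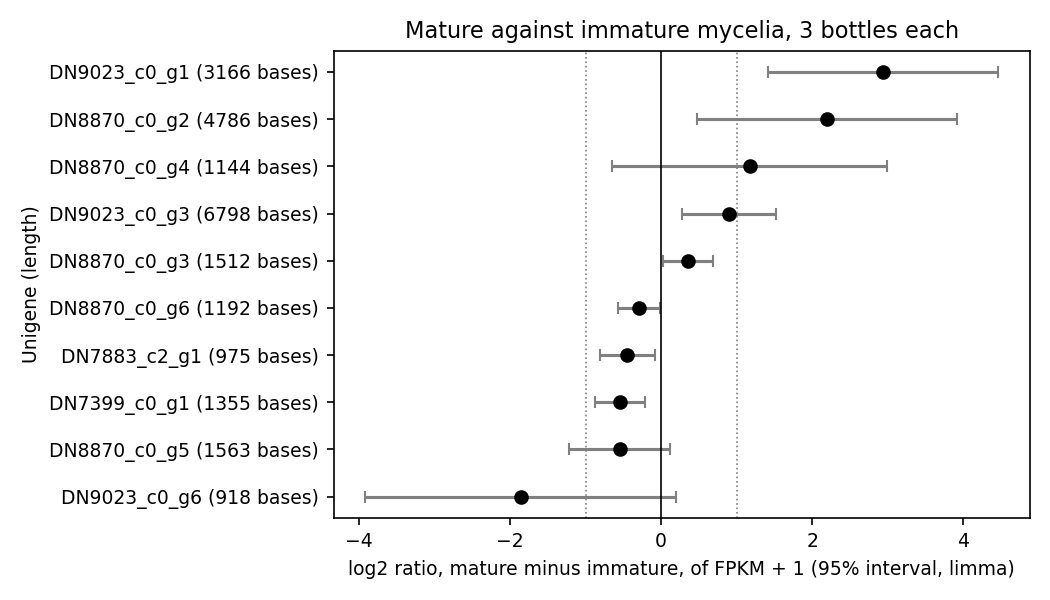
Log2 ratio of each unigene, mature minus immature on log2(FPKM + 1), with its 95% interval from limma, and dotted lines at the study's limit of 1 in either direction. The intervals of DN9023_c0_g1 and DN8870_c0_g2 are wide but lie above 0, as do those of DN9023_c0_g3 and DN8870_c0_g3 at smaller ratios, those of 3 members lie below 0, and those of DN8870_c0_g4, DN8870_c0_g5 and DN9023_c0_g6 include 0.

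Across the family, the mature bottles were all above the immature bottles in 4 members and all below in 3, with 3 overlapping. Among all unigenes tested, 8.69% had all mature bottles above and 14.2% had all mature bottles below. The 3 members of at least 3166 bases had log2 ratios between 0.90 and 2.94, and the 7 members of up to 1563 bases between -1.86 and 1.18. The part of length in these ratios was not tested.

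Members differed in how far bottles of 1 group lay apart. The residual SD of log2(FPKM + 1) was 1.06 for DN8870_c0_g2, 0.93 for DN9023_c0_g1, 1.12 for DN8870_c0_g4 and 1.25 for DN9023_c0_g6. These were larger than in 99.3% to 99.8% of the 8143 unigenes of at least 900 bases tested, whose median was 0.18. At the other end stood DN8870_c0_g6 at 0.12, DN7399_c0_g1 at 0.14, DN8870_c0_g3 at 0.17 and DN7883_c2_g1 at 0.19, close to that median. Within the mature group the highest bottle was 4.40 times the lowest for DN8870_c0_g2 and 5.94 times for DN9023_c0_g1, against 1.13 times for DN7399_c0_g1. The spread was wider among mature bottles in 6 members and among immature bottles in 4.

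Mature bottle 1 was the lowest of its group in 7 of the 10 members, and mature bottle 2 the highest in 6. The same was not counted over all unigenes, so these counts may not be particular to the family. Members of 1 component share sequence and are not independent. Among the 5 members with a log2 ratio above 0, only DN8870_c0_g3 was not lowest in mature bottle 1, where it was highest. DN8870_c0_g2 was highest in mature bottle 3. Over the 6 bottles, Pearson's r of log2(FPKM + 1) was 0.966 between DN9023_c0_g1 and DN9023_c0_g3. With DN8870_c0_g2 it was 0.878 for DN9023_c0_g3, 0.871 for DN9023_c0_g1 and 0.805 for DN8870_c0_g4, and -0.978 for DN8870_c0_g6. A second set was formed by DN7883_c2_g1, DN7399_c0_g1 and DN8870_c0_g5, with r from 0.813 to 0.883 within it. All points share the same 6 libraries, and with 2 groups of 3 the group difference itself adds to every r.

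**Figure D3:**
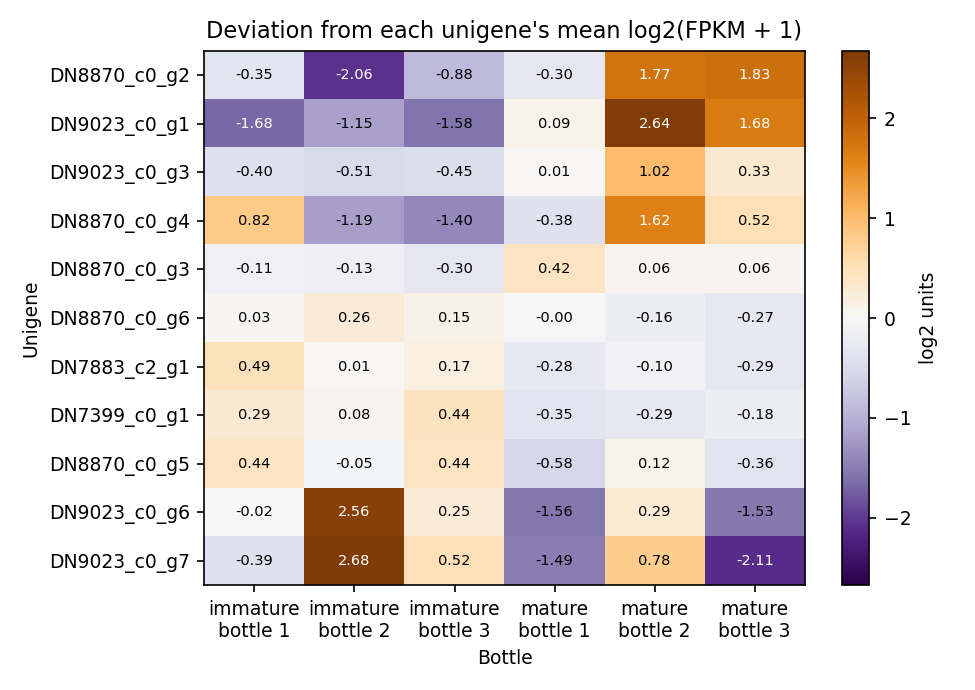
Deviation of log2(FPKM + 1) from each unigene's own mean over the 6 bottles, in log2 units, for the 10 members and the shorter DN9023_c0_g7, with orange above and purple below the mean. Mature bottles 2 and 3 stand out in the upper rows, with 1.77 and 1.83 for DN8870_c0_g2, and immature bottle 2 in the lowest pair, with 2.56 for DN9023_c0_g6 and 2.68 for DN9023_c0_g7.

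In the order of FPKM levels in immature mycelia DN8870_c0_g2 came first, and its bottles were all above those of DN8870_c0_g3 at 81.2 ± 5.96 FPKM (SD, n = 3). Then came DN9023_c0_g3 at 65.8 ± 2.66, DN8870_c0_g4 at 64.9 ± 60.0 and DN8870_c0_g6 at 59.2 ± 4.86 FPKM, whose bottles overlapped. DN7883_c2_g1 at 40.2 ± 7.07 FPKM was below DN8870_c0_g6 in every bottle. DN7399_c0_g1 at 25.3 ± 3.27, DN9023_c0_g1 at 24.5 ± 5.14 and DN9023_c0_g6 at 21.4 ± 23.1 FPKM overlapped. DN8870_c0_g5 had the lowest mean, 7.71 ± 1.59 FPKM, and overlapped DN9023_c0_g6, which was the lowest member in immature bottle 1. In mature mycelia the order changed mainly through DN9023_c0_g1, which moved to the second place behind DN8870_c0_g2, with overlapping bottles. DN8870_c0_g4 at 134 ± 90.9, DN9023_c0_g3 at 129 ± 48.4 and DN8870_c0_g3 at 105 ± 16.0 FPKM overlapped with each other. Below them, without overlap, came DN8870_c0_g6 at 48.3 ± 4.54, DN7883_c2_g1 at 29.0 ± 2.33 and DN7399_c0_g1 at 16.9 ± 1.09 FPKM. DN8870_c0_g5 at 5.0 ± 1.55 and DN9023_c0_g6 at 4.3 ± 4.23 FPKM closed the order and overlapped.

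The summed FPKM of the 10 members was 766, 479 and 551 in the immature and 773, 2432 and 2068 in the mature bottles 1, 2 and 3. Mature bottle 1 was level with immature bottle 1, and the other mature bottles were several times higher. Means were 599 ± 149 and 1758 ± 872 FPKM (SD, n = 3 each), a ratio of means of 2.93 and a difference of 1.42 in mean log2. As a percent of all FPKM in the table, the family made up 0.0629, 0.0392 and 0.0457 in the immature and 0.0629, 0.197 and 0.167 in the mature bottles.

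Most of that difference lay in DN8870_c0_g2 and DN9023_c0_g1. Without DN8870_c0_g2 the sums were 453, 384 and 334 FPKM in immature bottles, against 448, 1061 and 638 FPKM in mature bottles, so that the groups overlapped, and the log2 difference was 0.79. Without DN8870_c0_g2 and DN9023_c0_g1 they were 432, 354 and 312 FPKM against 374, 626 and 414 FPKM, a log2 difference of 0.34. By component, DN8870_c0 summed to 596, 282 and 387 FPKM in immature bottles, against 563, 1756 and 1683 FPKM in mature bottles, with mature bottle 1 below immature bottle 1. As FPKM times kilobases it summed to 1863, 706 and 1266 in immature bottles, against 1878, 7045 and 7172 in mature bottles, with the bottles numbered 1 level. The 3 members of DN9023_c0 summed to 96.4, 141 and 97.3 FPKM in immature bottles, against 166, 628 and 339 FPKM in mature bottles, without overlap. With the shorter DN9023_c0_g7 added, immature bottle 2 was at 258 FPKM, above mature bottle 1 at 171 FPKM, so that the groups overlapped. As FPKM times kilobases, DN9023_c0 with DN9023_c0_g7 summed to 546, 642 and 543 in immature bottles, against 854, 2654 and 1484 in mature bottles, again without overlap. The 4 members matched to short manganese peroxidases summed to 216, 94.5 and 103 FPKM against 105, 289 and 159 FPKM, which overlapped.

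DN8870_c0_g2 made up 41.0%, 19.9% and 39.4% of the family's summed FPKM in the immature and 42.1%, 56.4% and 69.1% in the mature bottles. Its share was thus 22.5 percentage points higher on average in mature mycelia, though mature bottle 1 was close to immature bottles 1 and 3. DN9023_c0_g1 went from 2.72%, 6.34% and 4.06% to 9.48%, 17.9% and 10.8%, a difference of 8.35 points. The shares of 5 members, DN8870_c0_g6, DN7883_c2_g1, DN7399_c0_g1, DN9023_c0_g6 and DN8870_c0_g5, were lower in every mature than in every immature bottle, and those of DN8870_c0_g4, DN9023_c0_g3 and DN8870_c0_g3 overlapped. Shares add up to the whole, so a larger share of DN8870_c0_g2 lowers the others. In the exact two-sided permutation test these 7 shares reached p = 0.1, the smallest that 3 against 3 bottles allow, and an adjusted p of 0.143 over the 10 shares.

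**Figure D4:**
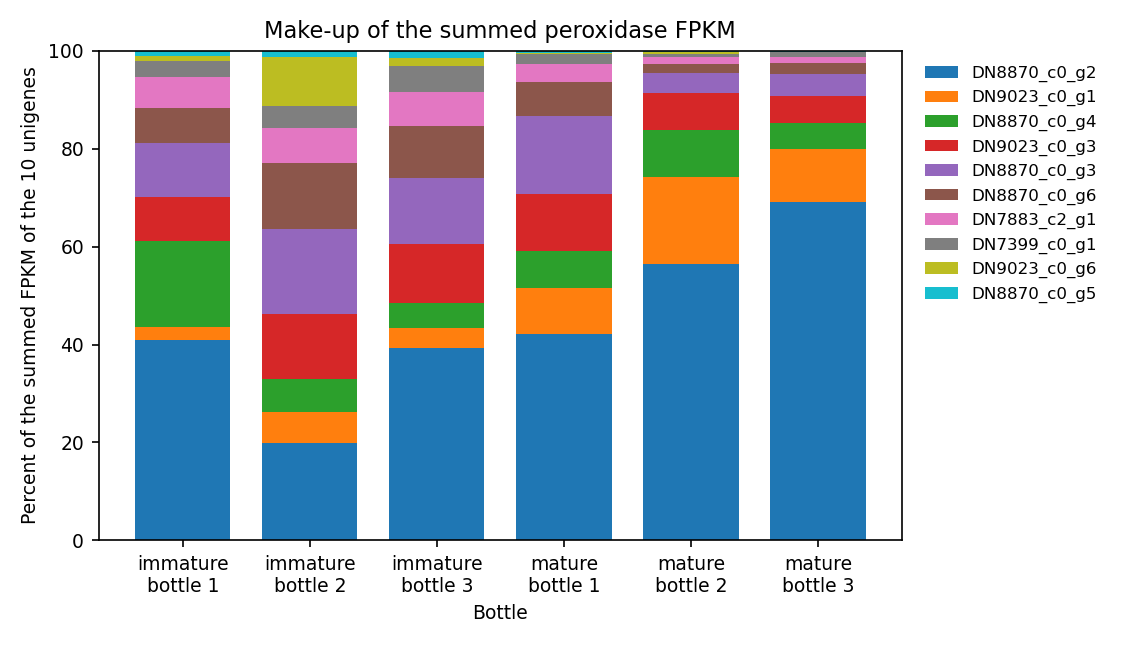
Stacked bars of each unigene's percent of the summed FPKM of the 10 unigenes, for each of the 6 bottles. DN8870_c0_g2 at the base runs from 19.9% in immature bottle 2 to 69.1% in mature bottle 3, and mature bottle 1, at 42.1%, is near immature bottles 1 and 3.

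The differences between paralogs of 1 component were compared in 6 pairs, as differences between their log2 ratios. DN8870_c0_g2 and DN9023_c0_g1, each set against the others, had the highest log2 ratios of their components. Every difference was thus above 0 by this choice, which the permutation test does not take into account. DN8870_c0_g2 exceeded DN8870_c0_g6 by 2.49 and DN8870_c0_g5 by 2.75, and DN9023_c0_g1 exceeded DN9023_c0_g3 by 2.04 and DN9023_c0_g6 by 4.80. Each of these 4 had p = 0.1 in the exact two-sided permutation test, the smallest possible, and an adjusted p of 0.15 over the 6 pairs. DN8870_c0_g2 exceeded DN8870_c0_g3 by 1.84 and DN8870_c0_g4 by 1.02, each with an exact permutation p of 0.3. With 3 bottles a group, no pair can fall below an exact permutation p of 0.1.

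The unigenes most like DN8870_c0_g2 over the 6 bottles were looked for among 5876 with a Swiss-Prot name, at least 500 bases and a mean FPKM of at least 5. By Pearson's r of log2(FPKM + 1) they were DN7607_c0_g1, matched to isp4 of fission yeast (r = 0.999), DN7289_c0_g1, a putative reductase (0.997), DN8346_c0_g3, matched to NEW1 (0.995), DN5640_c0_g2, matched to the splicing factor RSE1 (0.995), and DN8287_c0_g2, matched to a cytochrome P450 (0.995). Their differences between groups were smaller, and DN7607_c0_g1 was at 156.88, 91.5 and 127.77 FPKM in immature bottles, against 158.45, 284.83 and 294.29 FPKM in mature bottles. DN7607_c0_g1 was level between immature bottle 1 and mature bottle 1, and higher in the other mature bottles, as was DN8870_c0_g2. For DN9023_c0_g1 they were DN351_c0_g1, matched to the telomerase inhibitor PINX1 (0.998), DN7687_c1_g1, a putative purine permease (0.992), DN8565_c1_g1, matched to the nucleolar GTP-binding protein NOG1 (0.986), DN3745_c0_g1, matched to the splicing factor CEF1 (0.980), and DN8080_c1_g1, matched to a cap-binding translation factor (0.976). By rank order the likeness was less particular, since 64 unigenes had the same order of bottles as DN8870_c0_g2 and 7 that of DN9023_c0_g1.

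Other enzymes of lignin breakdown were found by words in the protein matches. No unigene other than the members was named a manganese or lignin peroxidase. The dye-decolorizing peroxidase DN8120_c0_g1, of another heme peroxidase family, was at 109.83, 376.07 and 212.12 FPKM in immature bottles, against 205.96, 136.11 and 149.92 FPKM in mature bottles, with overlapping groups and a log2 ratio of -0.35. Laccases are copper oxidases that attack phenols. The word laccase gave 20 unigenes, none (0) past the study's thresholds, with a median log2 ratio of -0.02. Of these, 3 were matched to laccase small subunits and 2 to a laccase transcription factor, and the other 15 had a median of -0.12. The most abundant match, DN4134_c0_g1, is a fragment of 329 bases matched to a laccase small subunit, at 3462.06, 503.68 and 1386.94 FPKM in immature bottles, against 115.44, 826.24 and 674.01 FPKM in mature bottles. Its bottles varied widely in both groups and overlapped (log2 ratio -1.74). The matches to laccase small subunits went both ways, with log2 ratios from -1.74 to 1.27, all with overlapping groups. The 2 unigenes of chloroperoxidase or peroxygenase, led by DN4618_c0_g1, matched to a plant peroxygenase, at a log2 ratio of -0.52, and the 2 of cellobiose dehydrogenase, led by DN7172_c0_g1 at -0.11, held none (0) past the thresholds.

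Words were also looked for that name oxidases able to supply hydrogen peroxide, together with related dehydrogenases. Aryl-alcohol oxidase or dehydrogenase gave 11 unigenes, all 11 matched to dehydrogenases, and alcohol or methanol oxidase gave 9. In both lists none (0) were past the study's thresholds, and the median log2 ratios were 0.05 and 0.47. These lists share 0 unigenes, though DN8428_c0_g3 of the second is named an aryl alcohol oxidase in Nr, spelled without the hyphen. The highest by mean FPKM were DN9257_c1_g2 (log2 ratio -0.55), a putative aryl-alcohol dehydrogenase, and DN8428_c0_g3 (0.17), matched to an aryl alcohol oxidase of *P. ostreatus*. Pyranose oxidase or dehydrogenase gave 35 unigenes, all 35 matched to dehydrogenases and 1 of them, DN8428_c0_g3, shared with the alcohol oxidases, with a median of -0.08, of which DN9087_c3_g1 was the most abundant (-0.19). In this list 1 was past the thresholds and lower, DN10015_c0_g1, a fragment of 377 bases at 11.78, 19.9 and 15.25 FPKM in immature bottles, against 7.87, 5.95 and 6.95 FPKM in mature bottles (log2 ratio -1.05, limma adjusted p = 0.161). The words for glyoxal or galactose oxidase and for glucose oxidase found 0 unigenes.

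Oxalate chelates the trivalent manganese that manganese peroxidase makes, and oxalate decarboxylase degrades it. Of 6 oxalate decarboxylase unigenes, with a median log2 ratio of -0.05, 1 was past the study's thresholds and higher, DN8634_c0_g1. It was also the most abundant, at 40.04, 24.93 and 33.56 FPKM in immature bottles, against 40.08, 121.15 and 93.51 FPKM in mature bottles, with a log2 ratio of 1.23 (limma adjusted p = 0.267). Mature bottle 1 was level with immature bottle 1 and the other mature bottles were higher, as for DN8870_c0_g2. The 1 unigene named a manganese transporter, DN3891_c0_g1, was low in all bottles, with a log2 ratio of 0.26.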

How the data were processed

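RNA of 6 bottles was sequenced, 3 per group. Per the labels and methods, the authors made stranded mRNA libraries, assembled clean paired reads with Trinity, clustered contigs with TGICL, matched unigenes to Swiss-Prot and Nr, and mapped reads back with RSEM. The deposited values are FPKM per unigene and library; read counts were not used here. The 6 columns were assigned to the 2 labelled groups by name and taken as 1 bottle each, so the spread is between cultures.

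Log2(FPKM + 1) was fitted with limma 3.58.1 (R 4.3.3, eBayes with an intensity trend) for unigenes with a mean FPKM above 1, adjusted by Benjamini-Hochberg over all of them. The fit was tested on simulated data with the same spread in every unigene. That spread was smaller than in the most variable members, so the fit was not tested at theirs. The study's thresholds were applied to this fit, because FPKM does not allow the count model they were set for. Shares and pairs used exact permutation tests (scipy 1.17.1). The named unigenes were all members, the shorter versatile peroxidase, those past the study's thresholds or highest in each list, and the 5 most like DN8870_c0_g2 and DN9023_c0_g1. Members, lists and this rule were chosen with earlier results of these data known. Some further catalase and superoxide dismutase unigenes were named after seeing the data. The alternatives were other pseudocounts, filters, scalings, variance priors and length limits, a block on bottle numbers, and each bottle left out.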

Additional observations from a re-analysis of the deposited data

How the results depend on the processing

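All 10 members kept the sign of their log2 ratio in 15 of 15 alternatives. DN9023_c0_g1 stayed past the study's thresholds in each, and DN8870_c0_g2 in 8 of the 9 that kept all bottles and in 3 of the 6 that left 1 out. Members past these thresholds numbered 1 to 3 when single bottles were left out. Unigenes past the study's thresholds were 496, but 290 with a pseudocount of 5 and 261 with only unigenes of at least 500 bases, where DN9023_c0_g6 (-1.86) was also called. Their split was 195 higher and 301 lower, and 247 higher and 228 lower after quantile normalization. Unigenes past an adjusted p of 0.05 were 11, but 101 with only unigenes of at least 500 bases and 0 to 8 when single bottles were left out. Bottle numbers did not pair the samples (r of the deviations of same-numbered bottles -0.089, -0.043 and -0.010). A replicate block on them left 0 unigenes past an adjusted p of 0.05 and 2 members past the study's thresholds, with DN8870_c0_g2 lost (adjusted p = 0.407) and DN9023_c0_g6 gained (adjusted p = 0.316). The difference in mean log2 of the summed FPKM, 1.42, ran from 1.11 to 1.93 when single bottles were left out. It was 1.40 after scaling, 1.30 with DN9023_c0_g7, 1.47 without DN9023_c0_g3 and 0.79 without DN8870_c0_g2, the last chosen after seeing the data. Shares weighted by length kept their direction, at 17.3 points for DN8870_c0_g2, 5.66 for DN9023_c0_g1 and -10.3 for DN9023_c0_g3. Without the weights these were 22.5, 8.35 and -3.08 points, so the size of the differences depended on length. The causes of these changes were not tested. The fragments behind an FPKM are not given in the table and limit the precision of low values. The split of the laccases and the component sums by length or with DN9023_c0_g7 were chosen after seeing the data.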

Other observations

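Catalase removes hydrogen peroxide, the substrate that the peroxidases use. The peroxisomal catalase DN8125_c1_g1, abundant in both groups, was at 1844.44, 2043.07 and 1812.67 FPKM in immature bottles, against 1265.33, 1441.44 and 1474.74 FPKM in mature bottles. Every mature bottle was below every immature bottle, at a log2 ratio of -0.45 (limma adjusted p = 0.275). The other of the 2 catalase unigenes, DN8999_c0_g1, went the other way, also without overlap. It was at 18.44, 26.35 and 20.83 FPKM in immature bottles, against 34.69, 29.86 and 36.94 FPKM in mature bottles. Its log2 ratio was 0.62 (limma adjusted p = 0.199). None (0) of the unigenes of peroxiredoxin (4, led by DN7210_c0_g1 at -0.33), glutathione peroxidase (1, DN6084_c0_g4 at -0.21, which is also in the peroxiredoxin list) and cytochrome c peroxidase (2, led by DN3185_c0_g1 at 0.06) was past the study's thresholds. Of 4 superoxide dismutase unigenes the most abundant, DN5171_c0_g1, had a log2 ratio of -0.05. The more abundant DN7883_c1_g1 was at 0.49 (limma adjusted p = 0.179), with all mature bottles above all immature ones, and DN7934_c0_g1 at -0.62, with overlapping groups. A fragment of 346 bases, DN7883_c0_g1, was past the thresholds and higher, at 0, 0.93 and 3.01 FPKM in immature bottles, against 4.72, 6.05 and 3.31 FPKM in mature bottles (log2 ratio 1.5, limma adjusted p = 0.304). These values are low, which limits their precision.

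Peroxidases need heme, and 9 unigenes of heme synthesis were found, 1 of them a uroporphyrinogen methyltransferase of the siroheme branch, none (0) past the study's thresholds, with a median log2 ratio of 0.02. The most abundant was 5-aminolevulinate synthase, the entry enzyme of the pathway (DN7681_c0_g1), at 456.98, 197.53 and 293.09 FPKM in immature bottles, against 262.84, 703.16 and 581.61 FPKM in mature bottles. Mature bottles 2 and 3 were the highest of the 6 and immature bottle 2 the lowest, the same extremes as in the summed FPKM of the 10 peroxidase unigenes. How many of all unigenes had these extremes was not counted, and a link between the 2 was not tested. The groups overlapped through mature bottle 1, and the log2 ratio was 0.67 (limma adjusted p = 0.522).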
